A study of Rattus norvegicus with 24 samples.

Results

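The subunits of glutamate, GABA and glycine receptors were followed in the rat spiral ganglion, whose neurons join the hair cells of the cochlea to the brainstem. Members were every gene on the arrays whose symbol belongs to the AMPA (Gria), kainate (Grik), NMDA (Grin), delta (Grid) or metabotropic (Grm) glutamate receptors, the GABA-A (Gabr) or GABA-B (Gabbr) receptors, or the glycine receptors (Glra, Glrb). They numbered 46 of 9627 genes, and the rule reads the gene symbol alone, without a measured value. RefSeq lists 52 such genes in the rat, and the other 6 (Gabra2, Glra4, Grik5, Grin3a, Grm2 and Grm3) were not analysed here.

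The rats were Sprague-Dawley of both sexes. Deaf rats had been given kanamycin, an aminoglycoside that destroys hair cells, at 400 mg/kg a day between P8 and P16 (postnatal days), by intraperitoneal injection. Hearing rats were littermates without injections. Ganglia were taken at P32 or P60, after the organ of Corti had been separated from them, and their apical and basal portions were analysed apart. The 24 samples made 8 groups of 3 (age, hearing or deaf, apex or base), and each sample held RNA from 4 to 6 ganglia. The RNA was amplified and hybridized to 1-colour NimbleGen arrays. Each level below is the log2 of a normalized intensity, listed for replicates 1, 2 and 3 in that order. Levels are compared between samples, and between transcripts only to pick 1 per gene and to say which are dim.

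Receptors of these families open an ion channel or signal through a G protein when their transmitter binds. Hair cells release glutamate onto the peripheral endings of spiral ganglion neurons, where AMPA receptors carry the fast response. NMDA, kainate and metabotropic glutamate receptors are also known in the cochlea, and efferent fibres from the brainstem bring GABA to the region below the inner hair cells.

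The promoters of Gabra5 and Gabrb1 are shown because these GABA-A subunits passed between base and apex in both hearing and deaf rats. Both are the RefSeq windows of GRCr8, from 250 bases before the gene's start to 50 after it, written 5′ to 3′ on the strand of the gene. The Gabra5 window lies at chr1:117516557-117516856 on the minus strand, and its capitals mark a GC box, read here in its reverse-strand form. The Gabrb1 window lies at chr14:36902844-36903143 on the minus strand, and its capitals mark a match to the NRF1 motif, a palindrome.
Gabra5: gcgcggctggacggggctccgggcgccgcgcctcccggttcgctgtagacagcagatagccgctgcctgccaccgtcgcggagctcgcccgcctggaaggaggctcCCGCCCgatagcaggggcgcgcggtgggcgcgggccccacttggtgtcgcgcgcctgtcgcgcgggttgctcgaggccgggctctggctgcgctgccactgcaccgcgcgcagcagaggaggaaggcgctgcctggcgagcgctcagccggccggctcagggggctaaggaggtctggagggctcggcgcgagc
Gabrb1: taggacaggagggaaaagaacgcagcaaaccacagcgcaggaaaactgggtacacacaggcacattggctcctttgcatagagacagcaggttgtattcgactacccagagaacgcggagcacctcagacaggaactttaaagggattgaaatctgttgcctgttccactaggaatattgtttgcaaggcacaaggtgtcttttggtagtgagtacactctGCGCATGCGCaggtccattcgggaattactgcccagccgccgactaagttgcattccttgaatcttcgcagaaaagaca
The Gabra5 window was 76.3% G and C and the Gabrb1 window 49.3%. Among the 31 members with a window, 14 held a GC box (GGGCGG), against 33.06% of 33469 rat windows, and 3 held a TATA box (TATAAA), against 14.22%. None held TGACGTCA, the cAMP response element, or TGANTCA, the AP-1 motif, which stood in 1.83% and 7.33% of all windows. The NRF1 letters, chosen after the Gabrb1 window had been read, stood in the Gabrb1 and Gabrb2 windows and in 0.85% of all. Both strands were searched. A match describes letters only, and a missing match says only that these letters are not in the window.

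Of the 46 members, 18 were also among the transcripts of the authors' smaller expression table. This was 39.13% of the members, against 59.728% of all genes. The rule behind that table is not stated in any source used. All 4 AMPA and both GABA-B subunits were in it, as were 3 of 4 kainate, 1 of 6 NMDA, 2 of 6 metabotropic, 4 of 18 GABA-A and 1 of 4 glycine receptor subunits. The mean levels of these 18 ran from 7.91 to 11.93, and those of the other 28 from 3.29 to 7.53. All 28 lay below the median transcript (8.27), as did 3 of the 18. The 5th percentile of all transcripts was 3.08 to 3.43 per sample, and whether a dim member stood above background was not tested, since no background or detection value was used.

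The median over all transcripts was 290.7 to 341.5 intensity units per sample. All 18 markers of spiral ganglion neurons were among the genes tested and in the expression table. In these ganglia fewer cells of a type and less RNA per cell cannot be told apart. A pair of libraries stood apart. P32 hearing apex replicate 1 had the highest summed level of its group in astrocyte markers (15.81, against 13.88 and 14.46) and macrophage markers (16.39, against 14.51 and 14.82). P60 deaf apex replicate 1 had 13.03 in markers of cerebellar and brainstem neurons, against 8.66 and 9.11 in its group and at most 10.90 in any other sample. Calls that rest on either are given with and without it, and differences without a call are not always. Of 12 Schwann and satellite glia markers only Fabp7 passed, and of 7 bone markers only Bglap and Alpl, all higher in the hearing base. The other bone markers there differed by -0.20 (Acan) to 0.65 (Ibsp). Of 8 muscle markers only Myl1 passed, lower in deaf rats at P60 (-2.45). The other muscle markers went both ways at P60, from -0.60 (Ckm) to 0.83 (Tnnt3). No hair cell or supporting cell marker passed in these comparisons, among 8 and 5 tested, although the summed hair cell level was 9.60 to 13.35 in hearing and 9.08 to 10.90 in deaf groups.

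**Figure D1:**
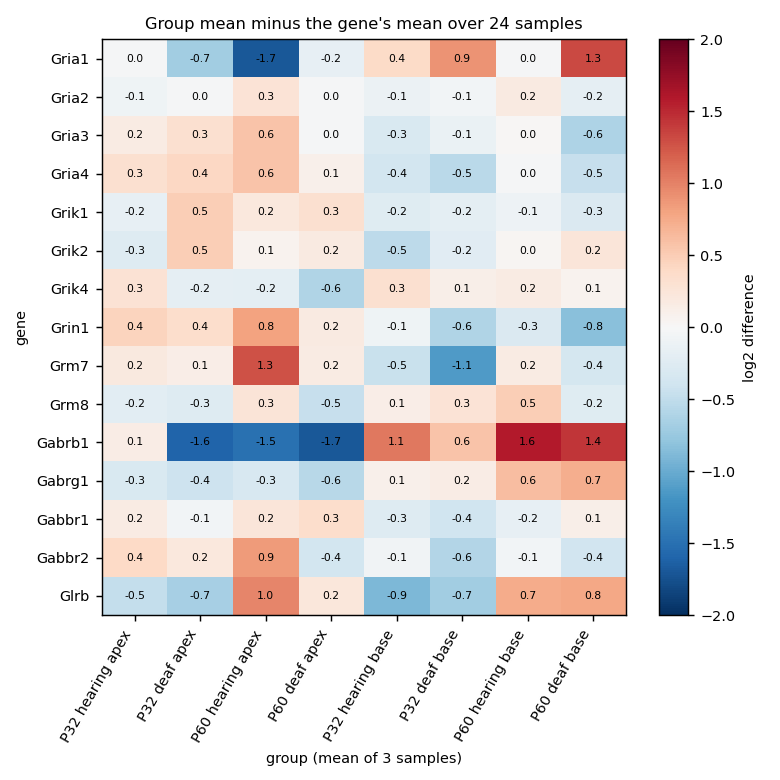
Mean log2 level of 15 receptor subunits of the expression table (rows) in each of the 8 groups (columns), shown by colour and number as the difference from that gene's mean over all 24 samples (log2 units, n = 3 per group). Gabrb1 is above its mean in all 4 basal groups and below it in 3 of the 4 apical groups.

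Base and apex were compared to ask how the ganglion differs along the cochlea, with P32 and P60 averaged. In hearing rats 2 GABA-A subunits were higher in the base, Gabra5 and Gabrb1. In deaf rats the same pair was higher in the base, and the NMDA subunit Grin2a was lower. These are 2 of 46 members against 1.01% of all genes in hearing rats, and 3 of 46 against 1.84% in deaf rats, at an adjusted p under 0.05 in limma. At an unadjusted p under 0.05 there were 9 members in hearing and 14 in deaf rats, beside 8.77% and 9.87% of all genes. By direction, 0.976% of all genes rose toward the base and 0.0312% fell in hearing rats, and 1.65% rose and 0.187% fell in deaf rats. The median difference of the 46 members was -0.04 in hearing and 0.09 in deaf rats, beside -0.03 for all genes in both.

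Gabra5 encodes the alpha5 subunit, known from hippocampal neurons for tonic inhibition by receptors outside synapses. Its apical levels were 7.79, 5.43 and 5.79 in P32 hearing rats, 3.54, 2.94 and 3.23 in P32 deaf rats, 4.77, 6.01 and 5.30 in P60 hearing rats and 3.72, 3.49 and 3.18 in P60 deaf rats. Its basal levels were 6.85, 8.32 and 7.23 in P32 hearing rats, 6.98, 7.45 and 7.15 in P32 deaf rats, 8.21, 8.34 and 7.89 in P60 hearing rats and 7.41, 9.29 and 7.20 in P60 deaf rats. The 6 deaf apical samples lay below every other sample, while hearing apical samples were intermediate and P32 hearing apex replicate 1 reached into the basal range. The 6 deaf apical values, 2.94 to 3.72, stood close to the 5th percentile of all transcripts, and with 50 units added before the log2 the deaf difference below was 2.03 in place of 4.23 and still passed (adjusted p = 0.0027), while the hearing difference was 1.29 in place of 1.96 and did not (adjusted p = 0.0544). Base exceeded apex by 1.96 ± 0.41 (SE) log2 units in hearing rats, at 7.81 against 5.85 (6 samples a side), with an adjusted p of 0.0242 in limma. The groups overlapped, and 5 of 6 pairs of the same age and replicate number were higher in the base. In deaf rats base exceeded apex by 4.23 ± 0.41, at 7.58 against 3.35, with an adjusted p of 2.64e-05 in limma. Here the groups did not overlap and 6 of 6 pairs were higher in the base. Pairing of base and apex was not shown in deaf rats (correlations of 0.05 to 0.86), so counts of deaf pairs give direction only.

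Gabrb1 encodes the beta1 subunit, which helps to form the GABA binding site. Apical Gabrb1 levels were 9.96, 7.15 and 7.63 in P32 hearing rats, 6.02, 7.17 and 6.33 in P32 deaf rats, 6.98, 7.23 and 5.61 in P60 hearing rats and 8.26, 5.49 and 5.46 in P60 deaf rats. In the base they were 9.28, 9.29 and 8.91 in P32 hearing rats, 9.08, 8.43 and 8.48 in P32 deaf rats, 9.61, 9.77 and 9.66 in P60 hearing rats and 9.48, 9.73 and 9.38 in P60 deaf rats. P32 hearing apex replicate 1 held the highest Gabrb1 level of all 24 samples, and P60 deaf apex replicate 1 was high within its group. Base exceeded apex by 1.99 ± 0.43 log2 units in hearing rats, at 9.42 against 7.43, with an adjusted p of 0.0297 in limma and 5 of 6 pairs higher. The hearing groups overlapped. In deaf rats the difference was 2.65 ± 0.43, or 6.25-fold, at 9.10 against 6.45, with an adjusted p of 0.00344, no overlap and 6 of 6 pairs higher.

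Within the platform of 8 samples, which held replicate 1 of each group, the base exceeded the apex by 1.25 for Gabra5 and 0.97 for Gabrb1 in hearing rats. Within the platform of 16 samples, with replicates 2 and 3, these differences were 2.31 and 2.50. In deaf rats they were 3.56 and 2.14 on the smaller platform and 4.57 and 2.90 on the larger, so the direction was shared. The hearing calls rested on few samples. Gabra5 lost its call (adjusted p of 0.0581 to 0.0916 in limma) without P32 hearing apex replicate 2 or 3, P32 hearing base replicate 2, P60 hearing apex replicate 1 or 3, or P60 hearing base replicate 1, 2 or 3. Gabrb1 lost its call (0.0748 to 0.112) without any of the same samples except P60 hearing base replicate 1, and without P32 hearing base replicate 3. Without P32 hearing apex replicate 1 both had smaller p, with 2.37 ± 0.34 for Gabra5 (adjusted p = 0.000627) and 2.34 ± 0.41 for Gabrb1 (adjusted p = 0.00275). In deaf rats both kept their calls whichever sample was left out, and without that sample and P60 deaf apex replicate 1 the deaf differences were 4.36 and 3.10.

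**Figure D2:**
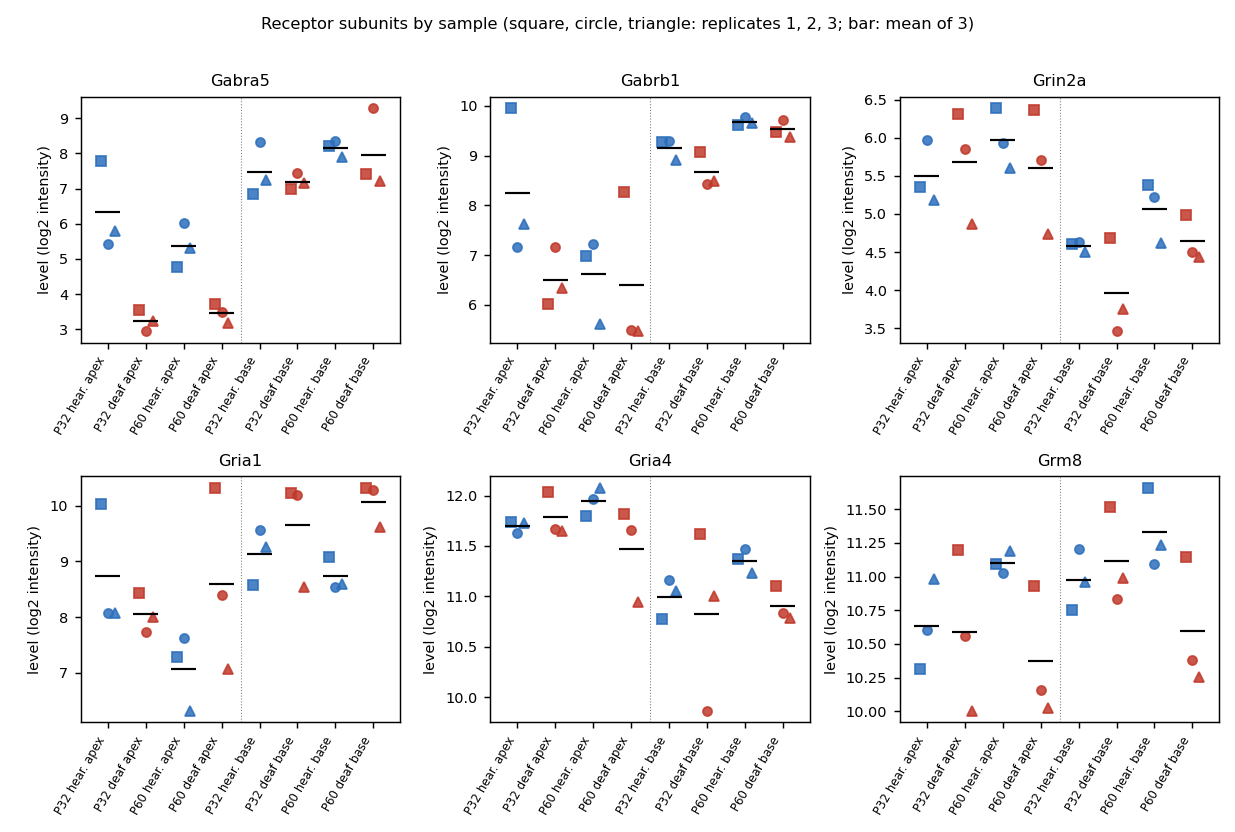
Levels (log2 normalized intensity) of receptor subunits in every sample, with the 8 groups along the x axis, 1 point per replicate and a bar at each group mean. Deaf apical samples lie below all others for Gabra5, at 2.94 to 3.72.

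Markers of several other cell types also lay mostly above 0 for base against apex. Of 8 astrocyte markers, 3 were higher in the base in hearing rats and 4 in deaf rats, all 8 lay above 0 in both, and the medians were 1.75 and 1.91. Of 7 oligodendrocyte markers, 4 and 3 were higher, 6 of 7 lay above 0 in both, and the medians were 1.63 and 2.58. The summed astrocyte level was 13.88 to 15.81 in P32 hearing apex, 14.61 to 15.36 in P32 hearing base, 13.56 to 14.36 in P32 deaf apex and 14.67 to 15.95 in P32 deaf base. At P60 it was 13.25 to 13.65 in hearing apex, 15.11 to 15.82 in hearing base, 12.93 to 14.41 in deaf apex and 16.02 to 16.13 in deaf base. The basal samples were thus higher at P60 without overlap, and at P32 in deaf rats without overlap. The summed oligodendrocyte level was 14.53 to 15.78 over the hearing and deaf apical groups and 15.80 to 16.23 over the basal groups. No marker was at 0, since the lowest deposited intensity was 4.89 units. Of 9 macrophage markers, 9 lay above 0 in hearing and 8 in deaf rats, with medians of 0.76 and 0.43 and none called. Their summed level in the P32 groups was 14.51 to 16.39 in hearing apex, 15.25 to 15.70 in hearing base, 15.33 to 16.14 in deaf apex and 15.75 to 16.15 in deaf base, and at P60 the base was above the apex without overlap in both conditions. Of 7 markers of cerebellar and brainstem neurons, 5 and 6 lay above 0 and none was called. Their summed level was 8.93 to 9.35 in P32 deaf apex and 10.08 to 10.90 in P32 deaf base, and 8.81 to 8.91 in P60 hearing apex and 9.73 to 9.87 in P60 hearing base, without overlap. It overlapped in P32 hearing rats (8.75 to 10.44 against 9.78 to 10.25) and in P60 deaf rats (8.66 to 13.03 against 9.88 to 10.65). The part of RNA from these cells in the Gabra5 and Gabrb1 difference was not tested.

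**Figure D3:**
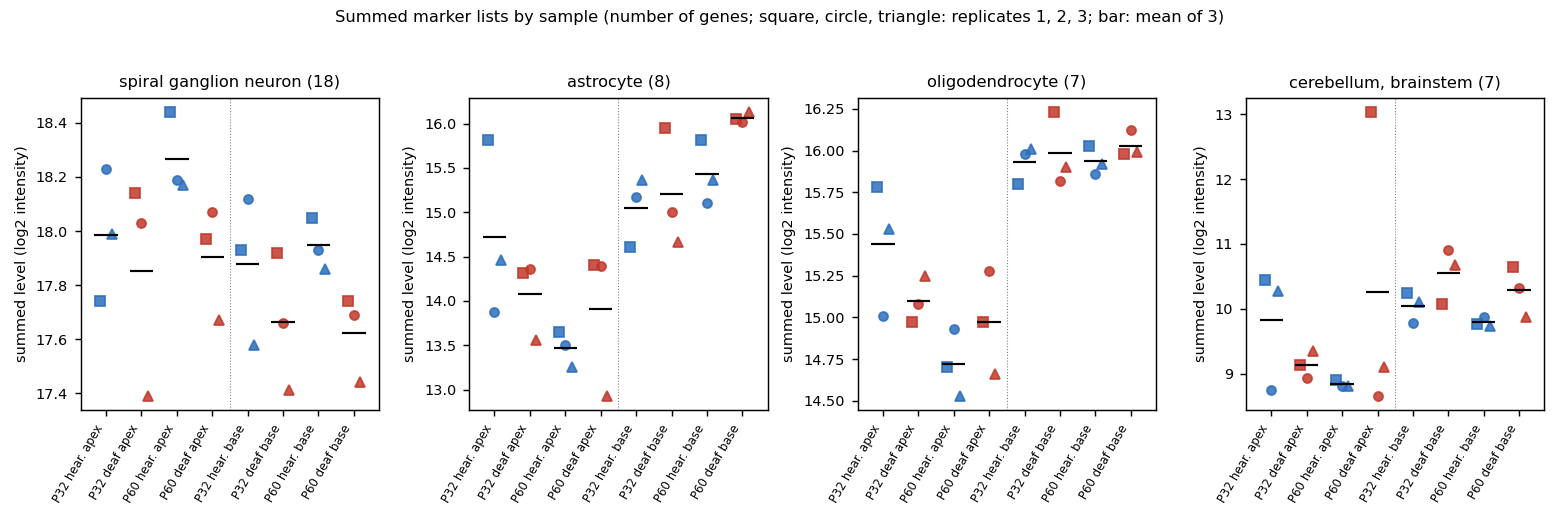
Summed level (log2 of the summed intensities) of marker lists in every sample, with the 8 groups along the x axis and 1 point per replicate. Astrocyte markers reach 16.02 to 16.13 in P60 deaf base and 13.25 to 13.65 in P60 hearing apex.

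Grin2a encodes the GluN2A subunit, which joins GluN1 in many mature NMDA receptors. In the apex Grin2a was at 5.36, 5.97 and 5.18 in P32 hearing rats, 6.31, 5.85 and 4.87 in P32 deaf rats, 6.39, 5.93 and 5.61 in P60 hearing rats and 6.37, 5.71 and 4.74 in P60 deaf rats. Its levels in the base were 4.61, 4.64 and 4.50 in P32 hearing rats, 4.68, 3.46 and 3.76 in P32 deaf rats, 5.38, 5.22 and 4.62 in P60 hearing rats and 4.98, 4.51 and 4.44 in P60 deaf rats. Base was below apex by 1.34 in deaf rats (-1.34 ± 0.24), at 4.30 against 5.64, with an adjusted p of 0.00563 in limma and 6 of 6 pairs lower, although the groups overlapped. In hearing rats the difference was -0.91 ± 0.24 with an adjusted p of 0.0876, also lower in 6 of 6 pairs. That comparison passed with the replicate number as a block in place of the platform (adjusted p = 0.0298) or within each age (0.0339), and without P32 hearing apex replicate 1 (-1.06, adjusted p = 0.0163). The deaf call was lost on the platform of 16 samples alone (adjusted p = 0.155), where the difference was -1.25. With 50 units added before the log2 it was -0.53 and passed (adjusted p = 0.0177). Grin2a was dim throughout and is not in the expression table. The 18 neuron markers had medians of -0.26 in both conditions for base against apex, with 1 of 18 above 0 in hearing and 2 of 18 in deaf rats and none called.

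**Figure D4:**
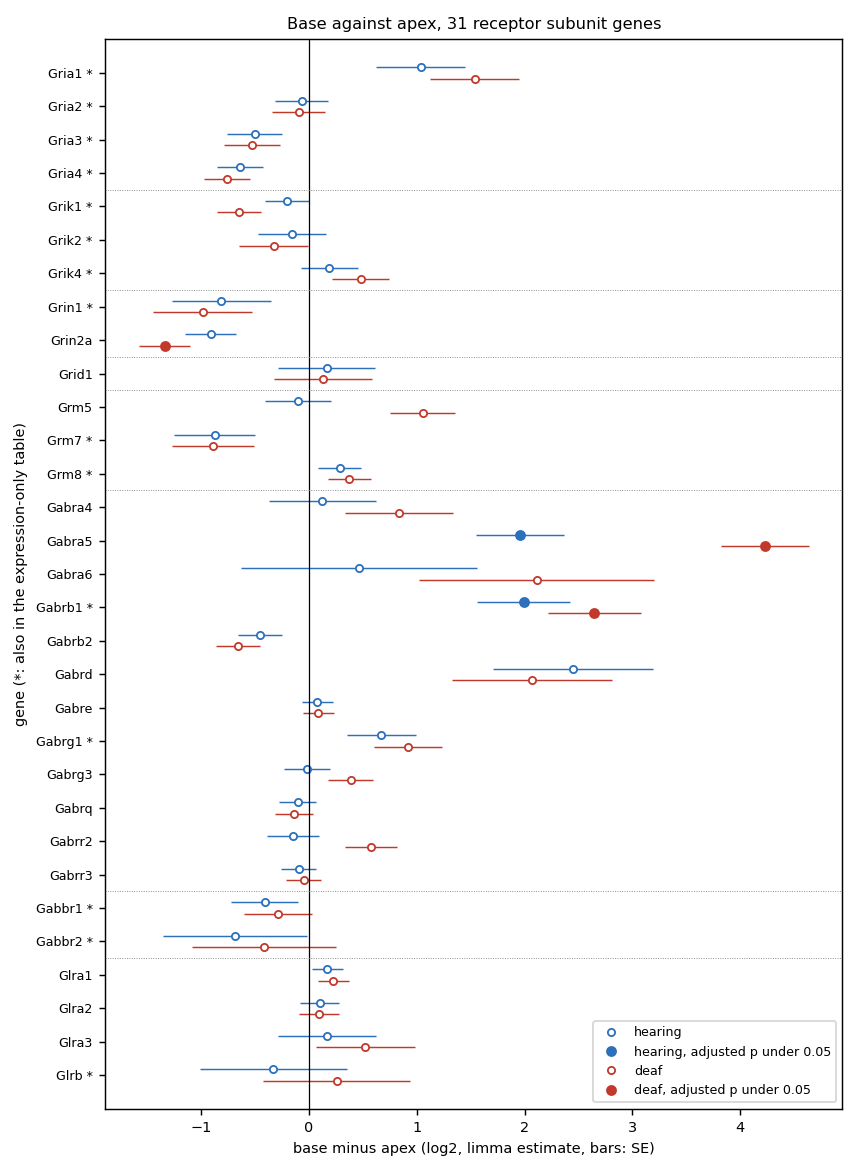
Base minus apex (log2 units ± SE from limma, 6 samples a side) for 31 receptor subunits in hearing and in deaf rats. Gabra5 is at 1.96 in hearing and 4.23 in deaf rats, and Grin2a is the only called subunit below 0, in deaf rats.

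The 4 AMPA subunits form the channel of the fast glutamate response, and none passed between base and apex. Gria1, which encodes GluA1, had apical levels of 10.04, 8.07 and 8.08 in P32 hearing rats, 8.43, 7.74 and 8.0 in P32 deaf rats, 7.27, 7.61 and 6.31 in P60 hearing rats and 10.32, 8.40 and 7.06 in P60 deaf rats. Basal Gria1 levels were 8.58, 9.57 and 9.26 in P32 hearing rats, 10.22, 10.19 and 8.54 in P32 deaf rats, 9.09, 8.53 and 8.59 in P60 hearing rats and 10.33, 10.28 and 9.62 in P60 deaf rats. Most basal samples were above most apical ones, with P32 hearing apex replicate 1 and P60 deaf apex replicate 1 the high apical exceptions. The difference was 1.04 ± 0.41 in hearing rats (adjusted p = 0.376 in limma) and 1.54 ± 0.41 in deaf rats (adjusted p = 0.0742), with 6 of 6 deaf pairs higher in the base. The deaf comparison passed without P32 hearing base replicate 1 (adjusted p = 0.0439) or P60 deaf apex replicate 1 (1.88 ± 0.39, adjusted p = 0.0201). Leaving out both of those apical samples was chosen after seeing the data, and removes the highest apical Gria1 level of each condition. Gria1 then passed in limma, at 1.31 ± 0.35 in hearing (adjusted p = 0.0457) and 1.92 ± 0.35 in deaf rats (adjusted p = 0.0056).

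Gria2 encodes GluA2, whose edited form keeps calcium out of the AMPA channel. Its apical levels were 10.94, 10.68 and 12.10 in P32 hearing rats, 11.70, 10.92 and 11.30 in P32 deaf rats, 11.54, 11.30 and 11.96 in P60 hearing rats and 11.46, 11.21 and 11.25 in P60 deaf rats. In the base Gria2 was at 10.87, 11.02 and 11.73 in P32 hearing rats, 11.62, 10.98 and 11.21 in P32 deaf rats, 11.73, 11.11 and 11.66 in P60 hearing rats and 11.28, 10.76 and 11.41 in P60 deaf rats. Hearing and deaf samples overlapped in each portion at each age. Base against apex gave -0.07 ± 0.24 in hearing and -0.10 ± 0.24 in deaf rats, with no call in either, and a second, dimmer Gria2 transcript differed by -0.41 ± 0.50 in hearing and -0.46 ± 0.50 in deaf rats (adjusted p = 1 and 0.996 over all transcripts).

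Gria3 encodes GluA3. Apical Gria3 levels were 11.71, 12.18 and 12.37 in P32 hearing rats, 13.02, 12.07 and 11.67 in P32 deaf rats, 12.91, 12.18 and 12.41 in P60 hearing rats and 12.70, 11.33 and 11.68 in P60 deaf rats. Basal Gria3 levels were 11.41, 11.75 and 11.72 in P32 hearing rats, 12.78, 11.33 and 11.26 in P32 deaf rats, 12.89, 11.39 and 11.58 in P60 hearing rats and 12.03, 10.78 and 11.13 in P60 deaf rats. Replicate 1, the platform of 8 samples, held the highest Gria3 level of its group in each portion of P32 deaf, P60 hearing and P60 deaf rats. In P32 hearing rats it held the lowest in each portion. Gria4 encodes GluA4. In the apex Gria4 was at 11.74, 11.63 and 11.73 in P32 hearing rats, 12.03, 11.67 and 11.65 in P32 deaf rats, 11.80, 11.96 and 12.08 in P60 hearing rats and 11.82, 11.66 and 10.94 in P60 deaf rats. Basal Gria4 levels were 10.78, 11.16 and 11.06 in P32 hearing rats, 11.62, 9.87 and 11.001 in P32 deaf rats, 11.37, 11.47 and 11.23 in P60 hearing rats and 11.10, 10.84 and 10.78 in P60 deaf rats. Hearing apical samples were above all hearing basal samples for Gria4, with a difference of -0.64 ± 0.21 (adjusted p = 0.226 in limma), and the deaf difference was -0.76 ± 0.21 (adjusted p = 0.0939) with overlap. With the replicate number within each age as a block neither passed (adjusted p = 0.133 and 0.0578), and with a random block joining the portions of 1 age, condition and number both did (0.0169 and 0.00453). Without P32 deaf base replicate 1 the deaf Gria4 difference passed, at -0.94 ± 0.20 (adjusted p = 0.0217).

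Other GABA-A subunits with large differences between base and apex did not pass. Gabrd, the delta subunit of receptors outside synapses, differed by 2.45 ± 0.74 in hearing (adjusted p = 0.155 in limma) and 2.07 ± 0.74 in deaf rats (adjusted p = 0.244). Gabrg1 differed by 0.67 ± 0.32 (adjusted p = 0.564) and 0.92 ± 0.32 (adjusted p = 0.217). Both were named after their values had been seen. Same-numbered hearing samples deviated together, and with the replicate number within each age as a block Gabrd passed in hearing rats (adjusted p = 0.0499) but not in deaf rats (0.0811). With the random block it passed in both (0.00704 and 0.0178), and Gabrg1 in deaf rats (0.0212). P32 hearing apex replicate 1 and P60 deaf apex replicate 1 held the highest apical Gabrd level of each condition, at 9.37 and 9.71. Without both, a setting chosen after seeing the data, Gabrd passed in limma. The difference was 2.88 ± 0.66 (adjusted p = 0.0199) in hearing and 2.73 ± 0.66 (adjusted p = 0.0383) in deaf rats. Of 18 GABA-A subunits 10 lay above 0 in hearing and 13 in deaf rats, with medians of 0.07 and 0.42. Beside them stood 4308 and 4350 of all 9627 genes, and 14 of the 18 are outside the expression table. Glycine subunits had 3 and 4 of 4 above 0, and delta subunits 2 and 2 of 2. The counts were 3 and 2 of 6 metabotropic, 2 and 1 of 6 NMDA, 1 and 1 of 4 AMPA, 1 and 2 of 4 kainate and 0 and 0 of 2 GABA-B subunits. In the RefSeq gene order Gabrb1 lies beside Gabra4 and near Gabrg1, and Gabra5 lies beside Gabrg3. None of Gabra4, Gabrg1 and Gabrg3 passed between base and apex in either condition.

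Deaf and hearing ganglia were compared at each age to ask which subunits differ after the hair cells are lost. With apex and base averaged, no member passed in limma at P32, where 0.0208% of all genes did, or at P60, where 0.758% did. At an unadjusted p under 0.05 there were 3 members at P32 and 10 at P60, beside 3.82% and 9.64% of all genes. The median difference of the members was -0.12 at P32 and 0.02 at P60, beside -0.01 and 0.02 for all genes. The 18 members of the expression table had medians of -0.13 and -0.34, with 12 of 18 and 14 of 18 below 0. All 18 neuron markers also lay below 0 at both ages, with medians of -0.18 and -0.36 and no call, and their summed level was 17.58 to 18.44 over hearing and 17.39 to 18.14 over deaf groups. Their part in the receptor values was not tested.

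Among AMPA subunits at P60, Gria1 was at 9.34 in deaf and 7.90 in hearing rats, a difference of 1.43 ± 0.41 with an adjusted p of 0.134 in limma. It was higher in 6 of 6 pairs of the same portion and replicate number, by 2.15 on the platform of 8 samples and 1.08 on that of 16. The Gria1 difference was 1.05 ± 0.35 (adjusted p = 0.2 in limma) without P32 hearing apex replicate 1 and P60 deaf apex replicate 1. Pairing was not shown for deaf against hearing at P60 (correlations of -0.02 to 0.78), so counts of pairs there give direction only. Gria3 differed by -0.62 ± 0.26 (adjusted p = 0.419) and Gria2 by -0.32 ± 0.24 (adjusted p = 0.845), each lower in 6 of 6 pairs. Gria4 differed by -0.46 ± 0.21 (adjusted p = 0.495). The Gria1 value thus had the opposite sign to those of the other AMPA subunits, with no call for any of the 4. At P32 their differences were between -0.08 and 0.17. The Gria3 difference was then 1.34 on the smaller platform and -0.43 on the larger, and Gria2 and Gria4 also changed sign between platforms.

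At P60, 3 of 6 metabotropic, 3 of 4 AMPA, 3 of 18 GABA-A and 1 of 6 NMDA subunits had an unadjusted p under 0.05 in limma. The share of all genes at that threshold was 9.64%. Grm8 encodes a receptor that lowers cAMP and is known from presynaptic endings. Its apical levels were 10.32, 10.60 and 10.98 in P32 hearing rats, 11.19, 10.56 and 10.003 in P32 deaf rats, 11.09, 11.02 and 11.19 in P60 hearing rats and 10.93, 10.16 and 10.03 in P60 deaf rats. Its basal levels were 10.75, 11.21 and 10.96 in P32 hearing rats, 11.52, 10.83 and 10.99 in P32 deaf rats, 11.66, 11.09 and 11.23 in P60 hearing rats and 11.15, 10.38 and 10.26 in P60 deaf rats. In the apex at P60 every deaf sample was below every hearing sample. The difference over both portions at P60 was -0.73 ± 0.20, lower in 6 of 6 pairs (pairing not shown), with an adjusted p of 0.111 in limma. Grm5 encodes a receptor that signals through phospholipase C. Apical Grm5 levels were 5.74, 3.08 and 3.05 in P32 hearing rats, 3.82, 3.19 and 3.07 in P32 deaf rats, 3.28, 2.93 and 3.02 in P60 hearing rats and 3.96, 2.83 and 2.94 in P60 deaf rats. Basal Grm5 levels were 3.69, 3.62 and 3.35 in P32 hearing rats, 4.73, 2.76 and 3.09 in P32 deaf rats, 3.70, 2.65 and 3.49 in P60 hearing rats and 5.59, 4.39 and 5.58 in P60 deaf rats. The 3 P60 deaf basal samples were above the hearing basal samples of both ages, and the highest Grm5 level of all was in P32 hearing apex replicate 1. Over both portions at P60 Grm5 differed by 1.04 ± 0.30 (adjusted p = 0.144), and in the base alone by 1.91 ± 0.43 (adjusted p = 0.218), without overlap. The P60 hearing levels, 2.65 to 3.70, stood close to the 5th percentile of all transcripts and were not shown to be above background, and with 50 units added these differences were 0.29 and 0.55.

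Without P32 hearing apex replicate 1, Grm5 (adjusted p = 0.0246 in limma) and Grm8 (adjusted p = 0.0435) passed at P60 and Grm5 passed in the P60 base (adjusted p = 0.0274), with the same differences, since that sample is not in the P60 contrast and enters only the shared spread. Then 193 of all genes tested passed at P60, against 73 with all samples and 5 with all samples and a random block of portions. Grm5 then also passed between base and apex in deaf rats, at 1.06 ± 0.23 (adjusted p = 0.0184), where it stood at 0.103 with all samples. Without P60 deaf apex replicate 1 as well, they stood at 0.0762 and 0.0517 over both portions and Grm5 at 0.0387 in the base. Of 9 macrophage markers, Cd68 and C1qb were higher at P60, all 9 lay above 0 and the median was 1.14. Their summed level at P60 was 14.14 to 14.40 in hearing apex, 15.81 to 15.99 in deaf apex, 15.29 to 15.84 in hearing base and 16.22 to 16.46 in deaf base. Their part in the receptor values was not tested.

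**Figure D5:**
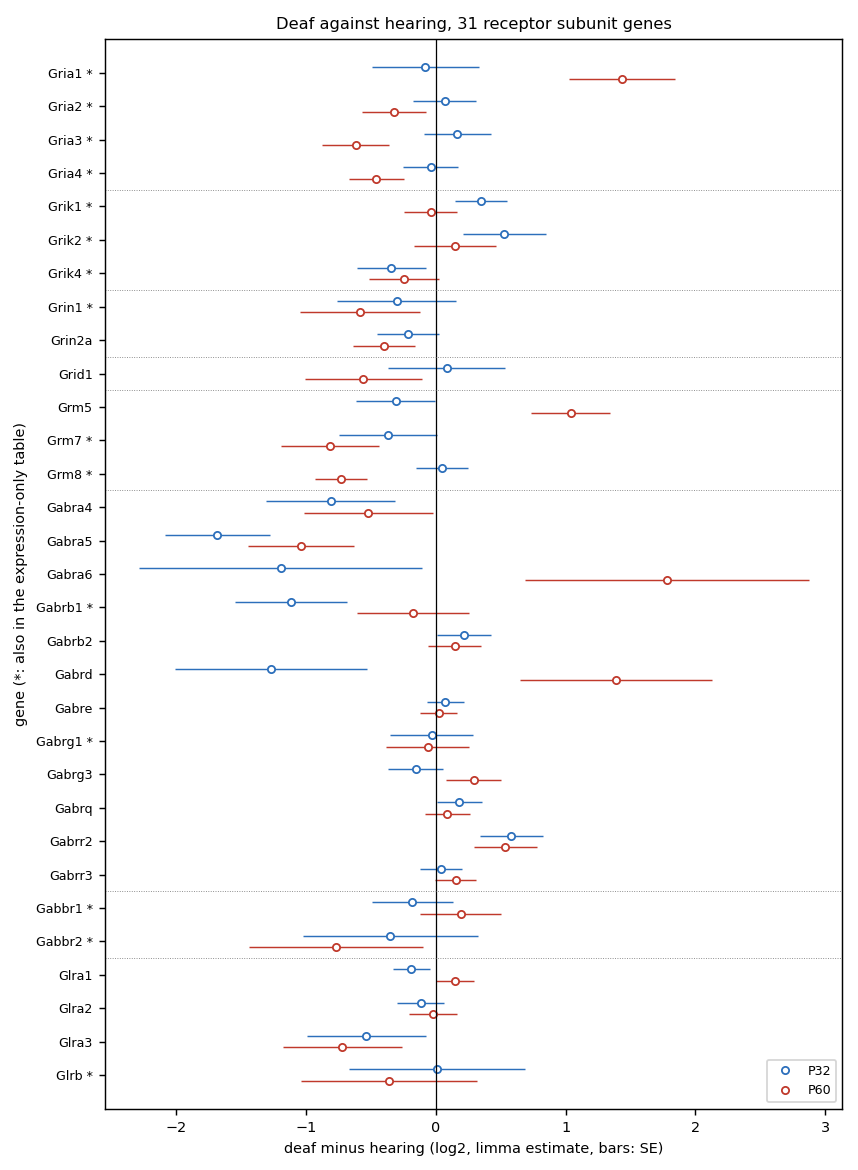
Deaf minus hearing (log2 units ± SE from limma, 6 samples a side) for 31 receptor subunits at P32 and at P60. At P60 Gria1 is at 1.43 and Gabra5 at -1.04, and no subunit passed at either age.

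Within single portions no member passed either. The share of all genes called was 0.0104% in the P32 apex, 0% in the P32 base, 0.343% in the P60 apex and 0.0519% in the P60 base, and 4, 1, 4 and 3 members had an unadjusted p under 0.05, beside 2.88%, 1.43%, 7.35% and 2.63% of all genes. The smallest p was that of Gabra5 in the P32 apex, where deaf rats were at 3.24 and hearing rats at 6.33, a difference of -3.10 ± 0.57 (adjusted p = 0.109 in limma) without overlap. Without P60 deaf base replicate 2, which enters only the shared spread, it passed (adjusted p = 0.0397). With 50 units added it was -1.22 (adjusted p = 1). Without P32 hearing apex replicate 1 the difference was -2.28 ± 0.52 (adjusted p = 0.12). In the P60 apex Gabra5 was at 3.46 against 5.36, a difference of -1.90 ± 0.57 (adjusted p = 0.248), also without overlap. In the base it differed by -0.27 ± 0.57 at P32 and -0.18 ± 0.57 at P60. Over both portions Gabra5 also had the smallest p of the members at P32, with -1.69 ± 0.41 (adjusted p = 0.246 in limma). At P60 it differed by -1.04 ± 0.41 (adjusted p = 0.363 in limma). The deafness effect on Gabra5 differed between base and apex by 2.27 ± 0.57, with an unadjusted p of 0.000941 and an adjusted p of 1 in limma, so this difference is not a call.

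Gabrb1 differed between deaf and hearing rats by -1.12 ± 0.43 at P32 and -0.18 ± 0.43 at P60 (adjusted p = 1 in limma at both). P32 hearing apex replicate 1, the highest Gabrb1 sample (9.96), enters the P32 difference. P60 deaf apex replicate 1 (8.26) enters the P60 difference, and no value without either sample is given here. Gabrr2 encodes a rho subunit, which can form GABA channels on its own. In the apex Gabrr2 was at 5.32, 5.74 and 4.52 in P32 hearing rats, 4.87, 5.03 and 5.62 in P32 deaf rats, 3.76, 4.05 and 4.52 in P60 hearing rats and 4.34, 4.06 and 5.17 in P60 deaf rats. In the base Gabrr2 was at 4.63, 4.42 and 4.92 in P32 hearing rats, 5.10, 6.17 and 6.25 in P32 deaf rats, 4.12, 4.31 and 4.64 in P60 hearing rats and 4.45, 5.45 and 5.14 in P60 deaf rats. In the P32 base the deaf samples were above the hearing samples without overlap, by 1.18 ± 0.34 (adjusted p = 1). At P60 it was higher in deaf rats in 6 of 6 pairs (pairing not shown), by 0.54 ± 0.24 (adjusted p = 0.464 in limma).

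Gabra6 encodes the alpha6 subunit, typical of cerebellar granule cells. Its highest level was in P60 deaf apex replicate 1, at 11.52 against 4.08 and 2.96 in its group. The same sample held 12.67 log2 units of Car8 and 10.61 of Neurod1, against at most 8.18 and 5.96 in its group. Gabrb2 and Gabrd also had their highest level there.

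The GABA-B receptor signals through a G protein as a pair of Gabbr1 and Gabbr2. Apical Gabbr1 levels were 12.42, 11.83 and 11.88 in P32 hearing rats, 12.24, 12.16 and 11.09 in P32 deaf rats, 13.004, 11.26 and 12.12 in P60 hearing rats and 12.67, 12.88 and 11.13 in P60 deaf rats. Basal Gabbr1 levels were 11.64, 11.54 and 11.69 in P32 hearing rats, 12.07, 11.30 and 11.06 in P32 deaf rats, 12.71, 10.45 and 12.01 in P60 hearing rats and 12.49, 11.57 and 11.96 in P60 deaf rats. All 4 comparisons of deaf and hearing groups within a portion overlapped, and the difference was -0.18 ± 0.31 at P32 and 0.19 ± 0.31 at P60. Gabbr2 differed by -0.35 at P32 and -0.77 at P60, with no call.

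Grin1 encodes GluN1, the subunit that every NMDA receptor needs. Apical Grin1 levels were 8.82, 11.53 and 10.19 in P32 hearing rats, 10.11, 11.15 and 9.01 in P32 deaf rats, 10.69, 10.74 and 10.19 in P60 hearing rats and 9.47, 11.02 and 9.25 in P60 deaf rats. Basal Grin1 levels were 8.92, 10.87 and 9.16 in P32 hearing rats, 9.37, 9.46 and 8.58 in P32 deaf rats, 9.71, 9.63 and 9.0 in P60 hearing rats and 8.75, 9.49 and 8.45 in P60 deaf rats. Replicate 2 of P32 hearing apex held the highest level. Deaf and hearing rats differed by -0.30 ± 0.46 at P32 and -0.59 ± 0.46 at P60 (adjusted p = 0.864 in limma), and base and apex by -0.81 in hearing (adjusted p = 0.747) and -0.98 in deaf rats (adjusted p = 0.491). No kainate or delta subunit had an unadjusted p under 0.05 for deaf against hearing at either age, with differences of -0.56 to 0.53 over both.

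Glrb encodes the beta subunit that anchors glycine receptors at synapses. In the apex Glrb was at 11.36, 9.27 and 12.33 in P32 hearing rats, 12.77, 8.23 and 11.40 in P32 deaf rats, 12.88, 12.07 and 12.40 in P60 hearing rats and 12.64, 12.08 and 10.35 in P60 deaf rats. In the base Glrb was at 11.24, 8.87 and 11.60 in P32 hearing rats, 12.69, 8.32 and 11.29 in P32 deaf rats, 12.85, 11.62 and 12.15 in P60 hearing rats and 12.63, 11.99 and 12.10 in P60 deaf rats. Replicate 2 was the lowest sample of each P32 group, at 8.23 to 9.27, and no P60 sample was that low. Deaf and hearing rats differed by 0.01 ± 0.68 at P32 and -0.36 ± 0.68 at P60. The alpha subunits Glra1, Glra2 and Glra3 were dim, with mean levels near the 5th percentile of transcripts for the first pair.

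P60 and P32 were compared within each condition to ask how the ganglion changes with age. No member passed in hearing rats, beside 0.0519% of all genes, or in deaf rats, beside 0.114%. At an unadjusted p under 0.05 there were 5 and 4 members, beside 6.41% and 5.75% of all genes. In hearing rats 15 of the 18 members in the expression table lay above 0, with a median of 0.28 beside -0.03 for all genes, and in deaf rats 10 of 18, with 0.14 beside 0.00. Of the 18 neuron markers 14 lay above 0 in hearing rats and 7 in deaf rats, with medians of 0.16 and -0.06, and of 7 oligodendrocyte markers 0 and 2, with medians of -0.55 and -0.09. None of these markers passed, and their part in the receptor values was not tested. Glrb differed by 1.55 ± 0.68 in hearing rats (adjusted p = 0.736 in limma), above 0 in 6 of 6 pairs, and by 1.18 ± 0.68 in deaf rats (adjusted p = 0.839). Gria1 differed by -1.03 ± 0.41 in hearing rats (adjusted p = 0.736). P32 hearing apex replicate 1, at 10.04, enters that difference, and no value without it is given here.

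The deafness effect was also compared between ages and between portions. No member passed, beside 0.0104% of all genes between ages and 0% between portions, and 6 and 3 members had an unadjusted p under 0.05, beside 1.98% and 0.696%. Between ages the differences were 1.35 ± 0.43 for Grm5, 1.52 ± 0.58 for Gria1 and -0.78 ± 0.28 for Grm8, each with an adjusted p of 1 in limma. P32 hearing apex replicate 1 was the highest hearing apical sample for Grm5 (5.74) and Gria1 (10.04). P60 deaf apex replicate 1 was the highest deaf apical sample for Gria1 (10.32). Both samples enter these differences, and no value without them is given here.

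Genes that supply, clear or anchor the same transmitters were read from 6 lists. Between base and apex, 2 of 16 genes of glutamate transport and synthesis were higher in the base in hearing rats, namely Slc1a2, the main astrocyte glutamate transporter (1.97), and the glutamine transporter Slc38a3 (1.34). In deaf rats 3 of 16 were higher, Slc1a1 (1.10), Slc1a2 (1.76) and Slc38a3 (1.45). Of 13 genes of GABA and glycine transport and synthesis, 1 was higher in the base in hearing and 2 in deaf rats, among them the GABA transporter Slc6a13 (0.78 in hearing and 0.74 in deaf rats). Slc1a2 is also on the astrocyte list. Of 23 glutamatergic scaffold genes, Dlgap2, a partner of postsynaptic density proteins, was lower in the deaf base (-1.37). None of 16 genes of AMPA and kainate auxiliary subunits and associated proteins, 12 GABA and glycine scaffold genes or 6 genes of chloride transport and its regulation passed between base and apex, and no gene of the 6 lists passed between deaf and hearing rats at P32 or P60 over both portions.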

How the data were processed

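Expression was measured with 1-colour NimbleGen arrays in 24 samples. The authors deposited intensity values on a linear scale, which they normalized with RMA per the submitters' processing notes (version not given in the sources used here), and per the labels technical replicates had been averaged. Whether the platforms of 8 samples (replicate 1) and 16 samples (replicates 2 and 3) were normalized together is not given there. The tables of both platforms were joined (26419 transcripts), log2 was taken, and 9747 transcripts were named from RefSeq (GRCr8), 9618 of 10113 curated and 129 of 16306 predicted. Each of 9627 genes was represented by its transcript with the highest mean (97 genes had a choice). The 14138 transcripts of the expression table matched within 0.002 units.

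Linear models (lmFit, contrasts.fit and eBayes of limma 3.58.1, under R 4.3.3) held 8 group means plus the platform over all 24 samples, which left 15 residual degrees of freedom. The two-sided p-values of 12 comparisons were adjusted by Benjamini-Hochberg across the 9627 genes, and a gene passed below 0.05. The fit was tested on simulated data. Replicates are biological per the labels, which do not say whether apex and base of the same ganglia share a number. No exact test was run, and for single portions, with 3 samples a side, none could give a p below 0.1. The number of arrays limits the precision.

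Members, marker lists and pathway lists were chosen with earlier results of these data known. Values in every sample are given for members that passed, for the 3 smallest p at P32, at P60 and between base and apex in hearing rats, and for Gria1 to Gria4, Grin1, Gabbr1 and Glrb. Some members and results are not reported or drawn here. Same-numbered samples deviated together (every correlation over 0.1) in all main comparisons except deaf against hearing at P60 over both portions (-0.02 to 0.78) and in the apex (-0.02 to 0.49), and base against apex in deaf rats (0.05 to 0.86).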

Additional observations from a re-analysis of the deposited data

How the results depend on the processing

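The counts of called members depended on the processing between base and apex, and no difference that passed reversed under any alternative, while the P32 values of Gria2, Gria3 and Gria4, which had no call, changed sign between platforms. In hearing rats the count of 2 became 1 without a platform term (Gabra5), over all transcripts (Gabra5), in the expression table alone (Gabrb1) and with 50 units added (Gabrb1), and 0 among genes above the median level, a filter that leaves out all called members. It became 4 with a replicate block within each age (Gabrd and Grin2a added, beside 2.54% of all genes), 5 with a random block of portions (also Gria4, beside 7.12% of all genes) and 5 without P32 hearing apex replicate 1 and P60 deaf apex replicate 1, a setting chosen after seeing the data (beside 3.99%). In deaf rats the count of 3 became 1 in the expression table alone and 0 under that filter. It became 6 with a replicate block within each age (beside 4%), 13 with a random block of portions (correlation 0.588, beside 7.99% of all genes) and 7 without that pair of samples (beside 2.31%). The replicate block in place of the platform gave 3 in hearing (beside 1.78%) and 4 in deaf rats (Gria1 added, beside 2.71%), where pairing was not shown, and changed no other call. Leaving out each sample in turn gave 0 to 3 in hearing and 3 to 5 in deaf rats, beside 0.28% to 4.32% and 0.883% to 2.53% of all genes, the hearing maximum without P32 hearing apex replicate 1. For deaf against hearing it gave 0 to 2 at P60 (beside 0.353% to 2%), 0 to 1 in the P32 apex and 0 to 1 in the P60 base, and 0 in the other 7 comparisons. A replicate block within each age added 1 member at P60 (Grid1, beside 2.48%) and 1 for age in hearing rats (Glra2, beside 0.571%). With the random block of portions 0.0519% of all genes passed for deaf against hearing at P60, against 0.758% in the main fit. Apart from the genes that the smaller tables leave out, the cause of these changes was not tested. Dim members are the least certain, since 28 of 46 lie outside the expression table.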

Other observations

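Some samples held the highest or lowest level of several receptor subunits. The share of all genes with an extreme in each sample was not counted, so these counts cannot be called particular to the subunits. P32 deaf base replicate 2 held the lowest level of 8 of 46 members (among them Gria4, Grik2, Grin2a, Gabrb2 and Glra2). P60 deaf apex replicate 1 held the highest level of 6 (among them Gabra6, Gabrb2 and Gabrd) and the lowest of 2. P32 hearing apex replicate 1 held the highest of 5 (Gabrb1, Gabrq, Gabrr3, Glra2 and Grm5) and the lowest of 3. Gabra6 had the widest range of any member, from 2.96 to 11.52 log2 units, and Gabre the narrowest, from 3.07 to 3.89.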
